A study of Mus musculus with 8 samples.

Results

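The 10 genes of blood stem and progenitor cells that were followed through the development of the mouse liver were Kit, Flt3, Cd34, Gata2, Runx1, Myb, Meis1, Hoxa9, Gfi1 and Lmo2. They were chosen by symbol from a list of well-known stem and progenitor genes, and all 10 are among the 22059 genes with a read count in each of the 8 samples. RNA-seq had been run on poly(A)-selected RNA of the whole liver of wild-type mice of the inbred strain FVB (FVB/NJ in the methods), and the labels name no other allele and no treatment. There were 2 samples, called biological duplicates by the study, at embryonic day 18 (E18), at postnatal day 14 (P14), at postnatal day 28 (P28) and in the adult, whose sample titles and methods give an age of 3 months. The methods give male sex for the adult stage, and the labels name no sex, litter or sequencing batch. The labels name Trizol for the RNA and the methods name a column kit.

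In late gestation the liver is the main organ of blood formation, and stem and progenitor cells leave it for the bone marrow around birth. Such cells carry growth factor receptors on their surface, and they hold their identity through transcription factors that act in shared complexes. Several of these genes are also known outside stem cells: Kit and Gata2 in mast cells, Lmo2 in red cell precursors and endothelium, Cd34 and Meis1 in endothelium, Gfi1 in developing neutrophils and Flt3 in dendritic cell precursors. A whole liver holds all of these cells together, so fewer cells of a type and less RNA per cell cannot be told apart in any value given here.

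The depth was 68154675 to 106055723 reads on genes in each sample. Levels over time are given as counts per 1000000 reads after TMM scaling (CPM below), which takes the bulk of the genes as unchanged, and levels of different genes are compared only as the deposited RPKM, which is per kilobase. Stages were compared with the quasi-likelihood test of edgeR on all 8 samples, a gene was said to rise or fall at an adjusted p below 0.1, and over 3-fold was the larger class. All 8 hepatocyte markers had reads in every sample, and all 8 rose from E18 to P14, when 38.2% of all genes tested rose. TMM gave the E18 samples factors of 1.60 and 1.54 and the later samples 0.847 to 0.888. Without it, by library size alone, the median of all genes was shifted by -0.87 on the log2 scale from E18 to P14 and by -0.85 from E18 to adult.

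Promoter windows for 9 of the 10 genes were found in RefSeq on GRCm38.p6, 13 windows in all, and Lmo2 had no entry. Each window was read as the 250 bases before the start site. Motifs bound by proteins of this group were searched on both strands, namely GATAA for the GATA family, TGTGGT for the RUNX family and AACTG for MYB. The 4 windows that held any of them are shown because Gata2, Runx1 and Myb encode proteins of those families. Capitals mark the matches on either strand.

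Gfi1, chr5:107725806-107726055, minus strand: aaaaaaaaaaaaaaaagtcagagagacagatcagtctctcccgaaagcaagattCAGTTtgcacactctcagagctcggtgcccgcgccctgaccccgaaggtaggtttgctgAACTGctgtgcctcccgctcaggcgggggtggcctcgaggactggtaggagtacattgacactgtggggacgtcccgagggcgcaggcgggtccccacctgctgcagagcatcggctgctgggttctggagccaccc
Hoxa9, chr6:52227371-52227620, minus strand: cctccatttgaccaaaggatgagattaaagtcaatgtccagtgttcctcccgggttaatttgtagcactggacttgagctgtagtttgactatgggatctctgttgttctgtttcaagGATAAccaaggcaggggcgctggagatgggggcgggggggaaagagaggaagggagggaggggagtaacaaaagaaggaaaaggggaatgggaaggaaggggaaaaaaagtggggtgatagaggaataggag
Meis1, chr11:19018970-19019219, minus strand: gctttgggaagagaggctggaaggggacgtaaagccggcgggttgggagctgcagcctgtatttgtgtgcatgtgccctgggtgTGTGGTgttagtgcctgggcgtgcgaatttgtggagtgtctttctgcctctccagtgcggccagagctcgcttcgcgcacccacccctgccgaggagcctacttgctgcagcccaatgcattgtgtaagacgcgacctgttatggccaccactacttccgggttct
Runx1, chr16:92826075-92826324, minus strand, the more upstream of its 2 windows: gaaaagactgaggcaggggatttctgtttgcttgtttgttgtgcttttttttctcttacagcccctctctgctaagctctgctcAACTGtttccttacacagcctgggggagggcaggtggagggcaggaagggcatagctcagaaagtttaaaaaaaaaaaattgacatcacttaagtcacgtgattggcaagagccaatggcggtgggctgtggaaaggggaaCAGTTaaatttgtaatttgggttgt

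GATAA was found in the Hoxa9 window alone, 132 bases before the start, and in 22.6% of all 32851 windows of this length. TGTGGT was found in the Meis1 window alone, 166 bases before the start, and in 14.0% of all windows. AACTG was found in the upstream Gfi1 window, 196 and 137 bases before the start, and not in the other Gfi1 window. AACTG was also found in the upstream Runx1 window, 166 and 25 bases before the start, where the first match overlaps an E-box (CAGNTG). It was present in 39.1% of all windows, and in 2 of the 13 windows here. The windows also differed in base composition, from 81.2% G and C with 40 CpG in Myb to 45.6% with 2 CpG in the upstream window of Runx1. The E-box was present in 3 of the 13 windows and 44.8% of all, the MEIS motif TGACAG in 0 and 15.9%, and the ETS motif GGAAG in 8 and 64.1%. A match of letters is a description of the window, not of binding.

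From E18 to adult all 9 genes other than Hoxa9 fell, each over 3-fold, when 43.8% of the 17081 genes tested fell and 23.8% fell over 3-fold. Hoxa9 also passed in edgeR and not in DESeq2, and it had entered the test only through its E18 reads. The log2 fold changes of the 10 genes had a median of -4.00, or -3.29 with Hoxa9 set at the bound given below, and that of all genes was -0.11. Together the 10 genes had a summed level of 313 and 355 CPM at E18, and of 18.5 and 16.7 CPM in adult, 5.27% of the E18 mean. These genes did not fall in step, however. Most of the fall of Lmo2, Runx1 and Gfi1 lay before P14, Myb fell steeply both before and after P14, and Meis1 had a fall that passed the test in each interval after P14.

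**Figure D1:**
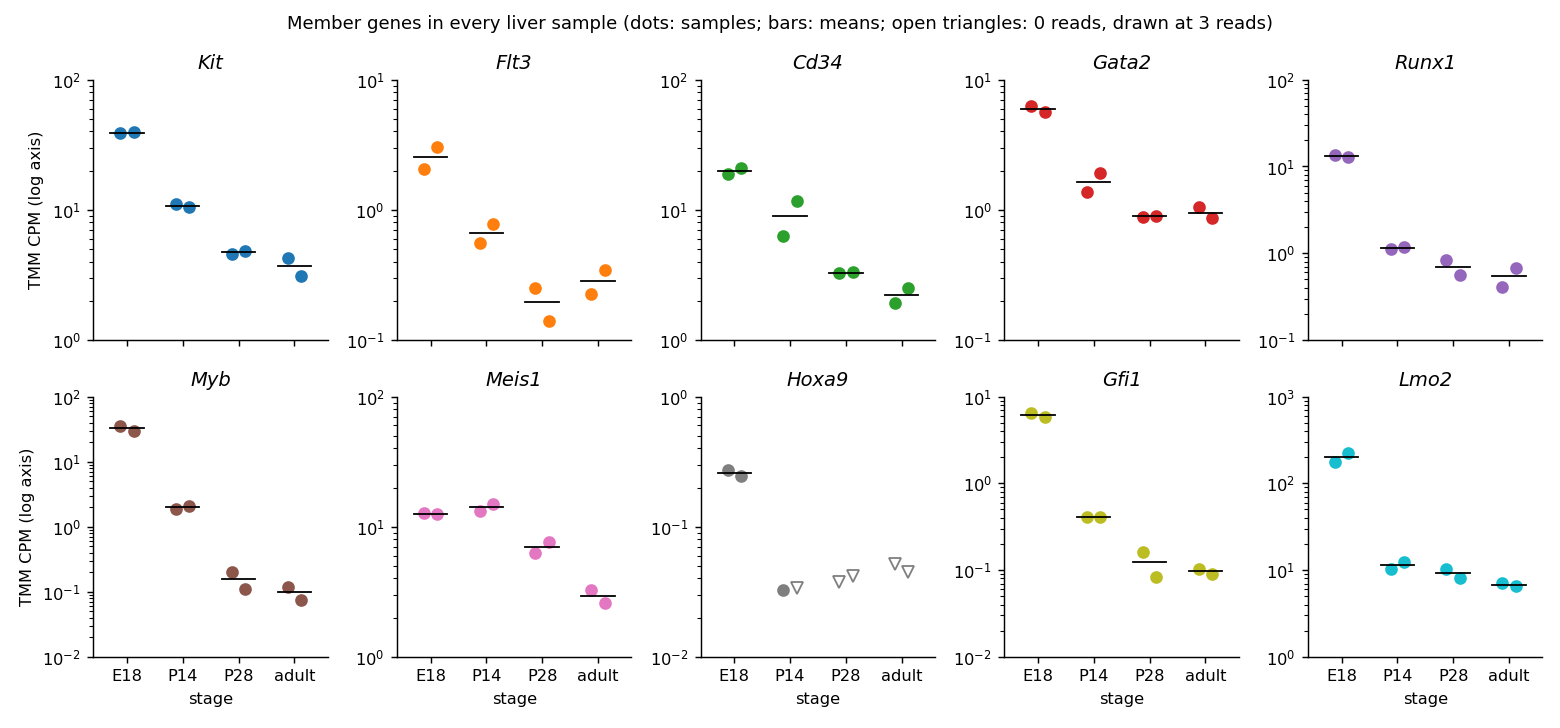
Level of each of the 10 genes in every sample, in TMM CPM on a log axis, by stage; dots are samples, bars are the mean of the 2 samples, and open triangles are samples with 0 reads drawn at the level of 3 reads. Both E18 samples lie above all later samples for every gene but Meis1, as they do in 36.6% of all genes tested; the P14 samples of Meis1 (13.2 and 15.0 CPM) lie above its E18 samples (12.6 and 12.5 CPM) in this scaling and below them in RPKM.

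Among the surface proteins, Kit is the receptor for stem cell factor and is needed for stem cells to persist. It had 38.8 and 39.7 CPM at E18, 11.1 and 10.5 CPM at P14, 4.56 and 4.85 CPM at P28, and 4.30 and 3.09 CPM in adult. The duplicates lay close together up to P28 and differed by 1.39-fold in adult. No 2 stages overlapped, but the higher adult sample lay just below those of P28. Kit fell from E18 to P14 with a log2 fold change of -1.86 (SE 0.14, edgeR adjusted p = 2.73e-06) and again from P14 to P28 with one of -1.20 (SE 0.14, edgeR adjusted p = 2.44e-04). The last step, of -0.35 (SE 0.15), did not pass (edgeR adjusted p = 0.160).

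Flt3, the receptor for Flt3 ligand on multipotent and lymphoid progenitors, was the lowest of the surface proteins. It had 2.08 and 3.02 CPM at E18, 0.556 and 0.774 CPM at P14, 0.250 and 0.140 CPM at P28, and 0.223 and 0.346 CPM in adult. The E18 samples lay above all others, and those of P28 and adult overlapped and rested on 10 to 23 reads each. Flt3 fell by 1.94 on the log2 scale from E18 to P14 (SE 0.31, edgeR adjusted p = 4.21e-04) and by 1.75 from P14 to P28 (SE 0.39, edgeR adjusted p = 0.00629).

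Cd34, a sialomucin that marks progenitors and also endothelial cells, had 19.0 and 20.8 CPM at E18, 6.28 and 11.6 CPM at P14, 3.25 and 3.30 CPM at P28, and 1.91 and 2.49 CPM in adult. The stages did not overlap, but its P14 samples differed by 1.85-fold, more than the samples of any other stage of this gene. Cd34 fell by 1.15 on the log2 scale from E18 to P14 (SE 0.25, edgeR adjusted p = 0.00248), which is below 3-fold. It fell by 1.45 from P14 to P28 (SE 0.26, edgeR adjusted p = 0.00213). Its first step was -1.65 without P14 replicate 2 and -0.76 without P14 replicate 1, and it passed the test in both cases. In the same P14 samples the stellate and mesenchymal markers summed to 1188 and 1600 CPM, and their part in this difference was not tested.

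Among the transcription factors, Gata2, a zinc finger protein that keeps stem cells from differentiating, had 6.25 and 5.66 CPM at E18, 1.37 and 1.91 CPM at P14, 0.888 and 0.895 CPM at P28, and 1.05 and 0.859 CPM in adult. It dropped at each of the first steps, and its P28 and adult samples overlapped. The log2 fold change was -1.86 from E18 to P14 (SE 0.20, edgeR adjusted p = 2.57e-05), -0.88 from P14 to P28 (SE 0.21, edgeR adjusted p = 0.00933) and 0.09 from P28 to adult (SE 0.23, edgeR adjusted p = 0.837). With 16.0% of its E18 mean left in adult, it kept the largest share of its E18 level after Meis1.

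Runx1, which is required for the first definitive stem cells to arise, had 13.5 and 12.9 CPM at E18 and 1.11 and 1.17 at P14. It had 0.825 and 0.560 CPM at P28, and 0.413 and 0.678 in adult. A large gap separated E18 from all later samples, and the P28 and adult samples overlapped. Runx1 fell by 3.53 on the log2 scale from E18 to P14 (SE 0.22, edgeR adjusted p = 7.81e-07). The step from P14 to P28 was smaller, at -0.71 (SE 0.24, edgeR adjusted p = 0.0404). It no longer passed without P14 replicate 2 (adjusted p = 0.128) or without P28 replicate 2 (adjusted p = 0.221).

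Myb, a factor that dividing progenitors of all definitive blood lineages depend on, had 35.4 and 30.0 CPM at E18, 1.85 and 2.11 CPM at P14, 0.200 and 0.112 CPM at P28, and 0.120 and 0.0753 CPM in adult. The adult values stand for 7 and 5 reads. The P28 and adult samples overlapped slightly, and the earlier stages were far apart. Myb had the largest fall of the 9 genes that had reads at every stage, with a log2 fold change of -8.38 from E18 to adult (SE 0.26, edgeR adjusted p = 8.47e-09), which left 0.299% of its E18 mean. It fell by 4.04 from E18 to P14 (SE 0.18, edgeR adjusted p = 1.02e-07) and by 3.64 from P14 to P28 (SE 0.25, edgeR adjusted p = 1.31e-05).

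Gfi1, a zinc finger repressor that restrains stem cell division and directs neutrophil formation, had 6.51 and 5.75 CPM at E18 and 0.415 and 0.404 at P14. Its later samples had 0.163 and 0.0839 CPM at P28, and 0.103 and 0.0904 in adult, from 6 to 13 reads. The P28 samples enclosed the adult ones. Gfi1 fell by 3.90 on the log2 scale from E18 to P14 (SE 0.23, edgeR adjusted p = 5.14e-07) and by 1.70 from P14 to P28 (SE 0.32, edgeR adjusted p = 0.00248).

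Lmo2, a LIM protein that bridges Tal1, GATA factors and Ldb1 on DNA, had 178.5 and 224.5 CPM at E18, 10.4 and 12.4 CPM at P14, 10.2 and 8.18 CPM at P28, and 7.13 and 6.49 CPM in adult. It was high in both E18 samples and far lower in the 6 others, among which each stage still lay below the one before without overlap. Lmo2 fell by 4.15 on the log2 scale from E18 to P14 (SE 0.17, edgeR adjusted p = 5.77e-08), a first step that differed from that of Myb by less than its SE. The following steps of -0.31 (SE 0.15, edgeR adjusted p = 0.134) and -0.43 (SE 0.16, edgeR adjusted p = 0.105) did not pass. Those adjusted p lay between 0.0757 and 0.532 and between 0.0589 and 0.468 over the alternatives, on both sides of the threshold.

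Meis1, a homeodomain partner of the Hox proteins, followed another course. It had 12.6 and 12.5 CPM at E18, 13.2 and 15.0 CPM at P14, 6.23 and 7.68 CPM at P28, and 3.25 and 2.61 CPM in adult. The P14 samples were the highest and each later stage lay below the one before. The log2 fold change from E18 to P14 was 0.17 (SE 0.15) and did not pass (edgeR adjusted p = 0.332). By library size alone it was -0.70 (adjusted p = 0.00160), when the median of all genes was -0.90. Meis1 fell by 1.02 from P14 to P28 (SE 0.15, edgeR adjusted p = 7.58e-04) and by 1.25 from P28 to adult (SE 0.16, edgeR adjusted p = 0.00161).

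Hoxa9, the homeodomain factor that acts with Meis1, was scarce throughout. It had 38 and 30 reads at E18, 3 reads in one P14 sample and 0 in the other, and 0 reads in both P28 and both adult samples, and it passed the filter on low counts only through E18. With the reads of the duplicates pooled, E18 exceeded P14 by 15.7-fold (exact 95% interval 5.15 to 78.0, counting error only). Against a floor of 3 counts per library, Hoxa9 was at least 6.53-fold lower at P28 and at least 5.36-fold lower in adult than at E18. Hoxa9 passed in edgeR (adjusted p = 0.00321 from E18 to P14 and 0.00181 from E18 to adult) and not in DESeq2 (adjusted p = 0.455 and 0.210). Nothing can be said of its change after P14 at this depth.

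From E18 to P14, then, 8 of the 9 genes other than Hoxa9 fell when 39.3% of all genes tested did, and 7 fell over 3-fold when 15.4% did (9 and 8 with Hoxa9 counted). Cd34 fell by less, and Meis1 did not pass. From P14 to P28 8 genes fell (background 28.6%) and 3 of them, Flt3, Myb and Gfi1, fell over 3-fold (background 5.98%). That count of 3 was 1 without P28 replicate 2, 2 without P14 replicate 2 and 4 without P14 replicate 1. From P28 to adult 1 gene fell, Meis1 (background 13.2%), and 0 changed over 3-fold in edgeR, DESeq2 or limma (background 2.24% fell). At an unadjusted p below 0.05 there were 3 genes in edgeR (Kit, Lmo2 and Meis1), 4 in DESeq2 (the same with Cd34) and 2 in limma (Lmo2 and Meis1). Without Hoxa9, the median log2 fold change of the other 9 genes was -1.94, -1.20 and -0.37 over the 3 intervals, against -0.03, -0.05 and 0.00 for all genes.

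**Figure D2:**
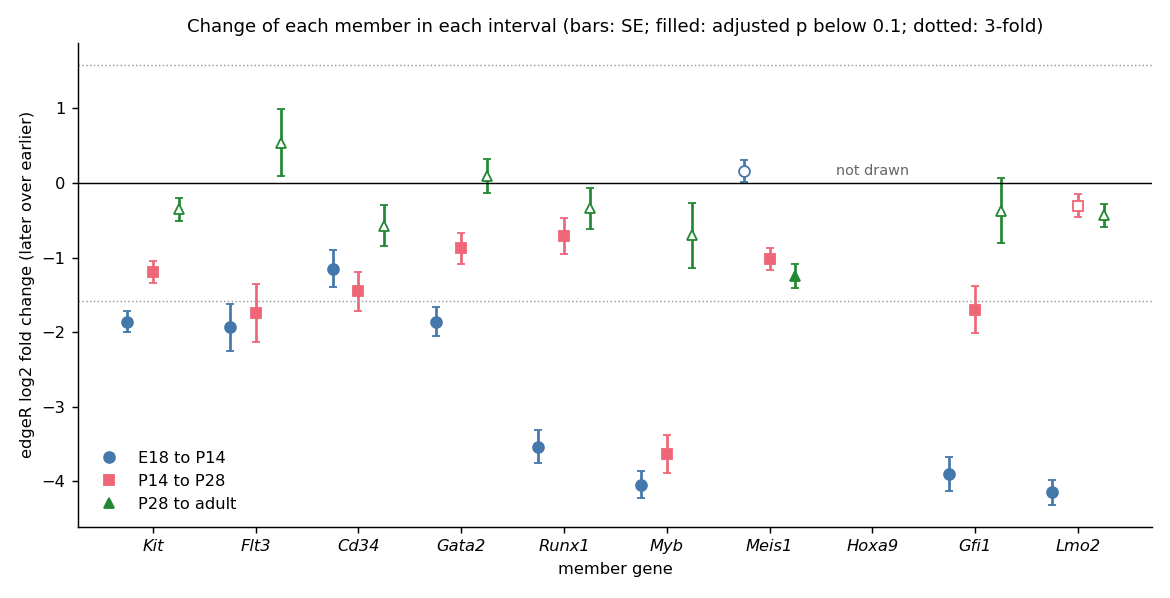
Log2 fold change of each gene in each of the 3 intervals, with its standard error, from edgeR; filled symbols passed at an adjusted p below 0.1, dotted lines mark 3-fold, and Hoxa9 is not drawn because its later samples had 0 to 3 reads. Lmo2, Runx1, Myb and Gfi1 lie near -4 in the first interval, and Meis1 is the only gene with a filled symbol in the last.

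Whether a gene changed differently before and after P14 was tested directly, as the log2 change from P14 to adult minus that from E18 to P14, a comparison added after the values had been seen. The difference was positive, a smaller fall after P14 than before, in 4 of the 9 genes other than Hoxa9 (background 26.0%). It was 3.41 in Lmo2 (SE 0.28, edgeR adjusted p = 1.28e-05), 2.49 in Runx1 (SE 0.42, edgeR adjusted p = 9.35e-04), 1.83 in Gfi1 (SE 0.53, edgeR adjusted p = 0.0176) and 1.08 in Gata2 (SE 0.36, edgeR adjusted p = 0.0309). Without P14 replicate 1 the value of Gata2 was 0.63 and did not pass (adjusted p = 0.247). The difference was negative in 1 gene, Meis1, at -2.43 (SE 0.25, edgeR adjusted p = 5.44e-05, background 34.8%).

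The remaining 4 genes did not pass in this comparison. The values were 0.31 in Kit (SE 0.25), 0.73 in Flt3 (SE 0.60), -0.87 in Cd34 (SE 0.44) and -0.30 in Myb (SE 0.42). Kit and Flt3 passed with positive values by library size alone, at 1.20 (adjusted p = 0.00167) and 1.62 (adjusted p = 0.0375). Cd34 passed without P14 replicate 1, at -1.64 (adjusted p = 0.00352).

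Per length, Lmo2 stood far above the rest at E18, with 139 and 171 RPKM, which gave it the ranks 335 and 295 among the 22059 genes. Myb followed with 13.9 and 11.5 RPKM, Kit with 11.1 and 11.1, and Cd34 with 10.7 and 11.5. Kit lay within the range of Cd34, so those 2 could not be ordered. Meis1 had 5.45 and 5.24 RPKM, while Gfi1, Gata2 and Runx1 overlapped each other between 2.53 and 3.11 RPKM. Flt3 had 0.842 and 1.20 RPKM and Hoxa9 0.179 and 0.156.

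The order changed by adulthood. Lmo2 remained first with 2.96 and 2.77 RPKM. Meis1, Cd34 and Kit followed and overlapped, between 0.484 and 0.770 RPKM, and Gata2 had 0.255 and 0.215. Myb, with 0.0251 and 0.0162 RPKM, had gone from the second place to the ninth and overlapped Gfi1. Lmo2 held 57.0 and 63.2% of all reads on the 10 genes at E18, 22.4 and 22.1% at P14, and 38.6 and 38.8% in adult.

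**Figure D3:**
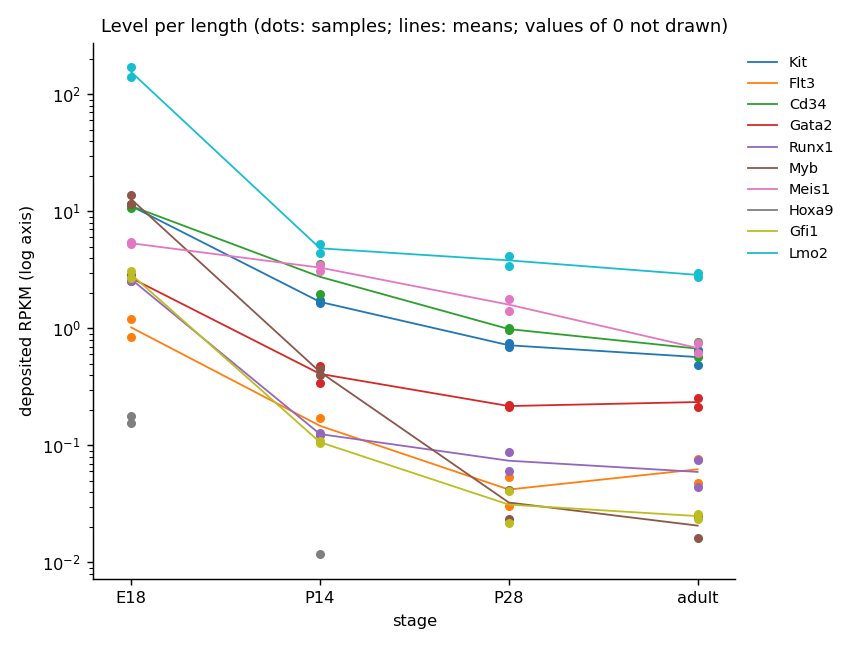
Deposited RPKM of the 10 genes by stage on a log axis; dots are samples, lines join stage means, and values of 0 are not drawn. Lmo2 is highest at every stage (139 and 171 RPKM at E18, 2.96 and 2.77 in adult), and the line of Myb crosses those of Cd34, Kit, Meis1, Gata2, Runx1, Flt3 and Gfi1.

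For each gene the 3 others with the most similar time course were found among 17071 genes, as the smallest root mean square difference of centred log2 CPM over the 8 samples. A prior count of 2 was used for this log2 CPM, which shrinks changes in genes with few reads. They were Gins3, Cdc25a and Cenpp for Kit, with differences of 0.0718 to 0.124. Meis1 was nearest to Dcx, Nes and Vash1 (0.150 to 0.162), Gata2 to Ssbp2, Suv39h1 and Pmm1 (0.140 to 0.148), and Lmo2 to Itga4, Col2a1 and Rab3il1 (0.168 to 0.195). Col2a1 had 0.6773 and 0.6946 CPM at E18 and 0 to 0.02244 later, so its course after E18 rests on almost no reads. Cd34 was nearest to Efna4, Tyro3 and Gm16897 (0.143 to 0.179), and Runx1 to Mbp, Dapp1 and Ptprv (0.195 to 0.220). Gfi1 was nearest to Slc38a1, Slc2a3 and Fbxo5 (0.225 to 0.253), and Flt3 to Mctp1, Tipin and Alox5ap (0.232 to 0.306). Those nearest to Myb, Mcpt8, Prss34 and Arxes1, lay farther off, at 0.355 to 0.392.

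The genes nearest to Hoxa9 were Rfx6, Gprc6a and Gm9926 (0.139 to 0.257). These 3 had 0.1879 to 0.3675 CPM in the E18 samples and 0 to 0.02181 in the later ones. The similarity thus rests on few reads at E18 and almost none after, and does not show a shared course. Rfx6, a factor of the endocrine pancreas and gut, had 40 and 24 reads at E18, 2 and 0 at P14, and 0 in the other samples. Markers of those organs were therefore looked up, in lists made after this was seen. At E18 the 9 pancreatic markers summed to 231.5 and 509.7 CPM, against 14.7 and 15.2 at P14 and 4.26 and 4.01 in adult, where Cpa1, Cpb1, Pnliprp1, Ins2 and Pdx1 had 0 reads. Of the 8 pancreatic markers tested, 6 fell from E18 to P14, when 39.3% of all genes tested fell. Amy2a5 and Cela2a did not pass. Of the 7 intestinal markers, 6 fell and 1 rose from E18 to P14, against 39.3% and 38.2% of all genes tested. The 1 that rose was Fabp2, by 4.76 on the log2 scale. The intestinal sum rose with it, from 55.89 and 36.27 CPM at E18 to 136.0 and 141.6 at P14. Cdx2 had 641 and 304 reads at E18 and 0 or 1 in each later sample. Their part in the reads of Hoxa9 at E18 was not tested.

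Ligands and anchors of the niche were compared next, since Kit and Flt3 act only when their ligands are present. Of the 14 genes of this list, 3 fell and 8 rose from E18 to P14 (38.2% of all genes tested rose), and 5 fell and 6 rose from E18 to adult (39.5% of all genes tested rose). The median log2 fold change from E18 to adult was 0.65 against -0.11 for all genes, and it was -0.20 by library size alone, when 7 fell and 5 rose. Kitl, the ligand of Kit, had 27.0 and 23.9 CPM at E18 and 1.12 and 1.18 in adult, a log2 fold change of -4.47 (SE 0.17, edgeR adjusted p = 2.12e-08). Both the ligand and its receptor fell.

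Flt3l, the ligand of Flt3, had 5.86 and 5.61 CPM at E18 and 6.19 and 7.22 in adult, a log2 fold change of 0.23 (SE 0.14) that did not pass (edgeR adjusted p = 0.173). Vcam1, an adhesion protein that holds progenitors, fell by 5.19 on the log2 scale, and Epo, the growth factor of red cell precursors, fell by 3.99. Spp1, an extracellular matrix protein, rose by 2.37.

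Of the other stem and progenitor transcription regulators, 26 of 28 could be tested. From E18 to P14, 15 fell and 8 rose, against 39.3% and 38.2% of all genes tested, with a median of -0.92. From E18 to adult 18 fell and 6 rose, against 43.8% and 39.5%, with a median of -1.59. By library size alone the counts were 19 and 5, and then 21 and 4. Gfi1b, Gata1 and Tal1 had the largest fitted changes, and the rank of Hoxa7 after them rests on a fit against 0 reads in both adult samples. Lyl1 and Ikzf1 came next and fell by 6.43 and 6.38 on the log2 scale. Tal1, a partner of Lmo2, fell by 8.68 on the log2 scale from E18 to adult (SE 0.15, edgeR adjusted p = 1.15e-09) and Gata1, the GATA factor of red cells and megakaryocytes, by 11.82 (SE 0.30, edgeR adjusted p = 3.29e-09). Gfi1b, the relative of Gfi1 in the same lineages, had 11279 and 10600 reads at E18 and 1 and 0 in adult. Hoxa7, next to Hoxa9 in the gene cluster, had 19 and 18 reads at E18 and 0 in both adult samples.

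The regulators that rose from E18 to adult were Cebpa, Hhex, Zbtb16, Hlf, Bmi1 and Etv6. Cebpa, which hepatocytes also use, had 68.8 and 83.3 CPM at E18 and 899 and 854 in adult. Ldb1, the other partner of Lmo2, had 135 and 132 CPM at E18 and 45.6 and 47.5 in adult.

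All 18 other receptors and surface proteins of progenitors could be tested. From E18 to P14 7 fell, 6 rose and 5 did not pass, near the shares of all genes tested (39.3% fell and 38.2% rose), with a median of 0.07. By library size alone 11 fell and 4 rose, with a median of -0.80. From E18 to adult 15 fell and 2 rose (43.8% and 39.5% of all genes tested), with a median of -1.52. Large falls included those of Epor, the erythropoietin receptor, at -6.21, Slamf1, a marker of stem cells, at -5.81, and Cxcr4, the receptor of Cxcl12, at -3.72. The 2 that rose, Ly6a and Thy1, are also stem and progenitor surface antigens of this list, and are known on other cells too. They rose by 3.28 and 1.80.

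Markers of several blood cell types and of dividing cells also fell. The 5 pan-leukocyte markers summed to 127 to 161 CPM at E18, 62.0 to 62.4 at P14, 36.7 to 45.7 at P28 and 23.7 to 26.1 in adult. In the first interval 4 of 5 fell, when 39.3% of all genes tested fell. All 9 erythroid markers (10040 to 13020 CPM at E18 and 440 to 462 at P14), all 10 neutrophil markers (1073 to 1256 and 180 to 193), all 7 megakaryocyte markers (204 to 271 and 24.3 to 25.7) and all 7 proliferation markers (2037 to 2309 and 200.1 to 223) fell from E18 to P14. In adult these 4 lists summed to 96.2 to 106, 1.46 to 3.96, 6.40 to 7.03 and 4.25 to 4.35 CPM, and of the neutrophil markers Ctsg, Camp and Ngp had 0 reads. Ptprc, Epor and Itga2b stand in these lists and in the receptor list. The part of these cell types in the fall of Lmo2, Myb, Runx1 and Gfi1 was not tested.

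The mast cell markers, relevant to Kit and Gata2, summed to 10.5 to 11.2 CPM at E18, 8.74 to 9.32 at P14, 4.201 to 6.31 at P28 and 3.71 to 5.18 in adult. Of the 6 tested, 4 fell from E18 to P14 (39.3% of all genes tested fell), and Hdc, which held most of the sum, did not pass. Fcer1a had 0 reads at P28 and Tpsb2 had 0 in adult. Their part in the levels of Kit and Gata2 was not tested.

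The endothelial markers, relevant to Meis1 and Cd34, had their highest sum at P14. They summed to 310 to 355 CPM at E18, 677 to 685 at P14, 357 to 367 at P28 and 260 to 288 in adult, and none was at 0 at any stage. Of the 11, 9 rose and 2, Lyve1 and Vwf, fell from E18 to P14, against 38.2% and 39.3% of all genes tested. All 11 fell from P14 to P28, when 28.6% of all genes tested fell. By library size alone 6 rose and 3 fell in the first interval. Their part in the course of Meis1 and Cd34 was not tested.

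**Figure D4:**
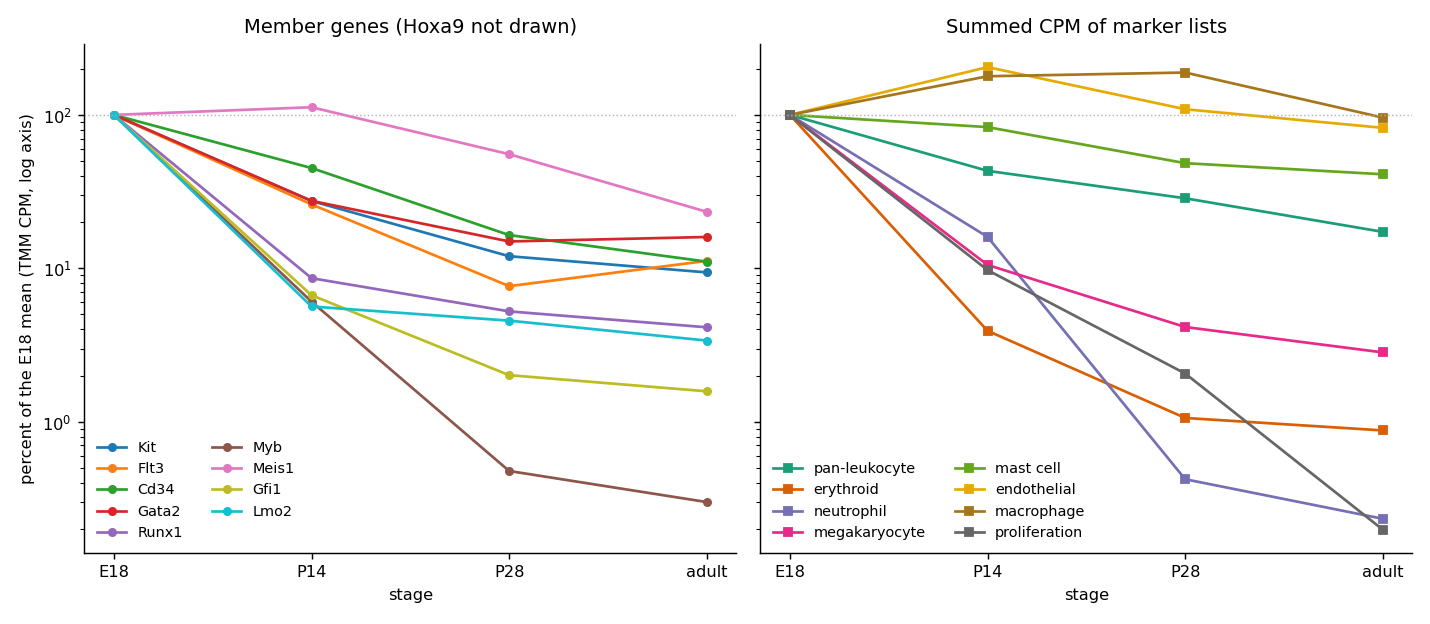
Mean level at each stage as a percent of the E18 mean, in TMM CPM on a log axis, for 9 genes (left) and for the summed CPM of 8 marker lists (right). Meis1 stands at 112% at P14 and 23.3% in adult and Myb at 0.299% in adult; the endothelial sum stands at 205% at P14 and 82.3% in adult, and the neutrophil sum at 0.233% in adult.

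Markers of other blood cells, lymphoid and dendritic, and of other cell types in the liver did not all fall. From E18 to P14, 6 of 7 markers of T and NK cells and 6 of 7 dendritic cell markers rose, and 1 dendritic cell marker, Zbtb46, fell. Of all genes tested 38.2% rose and 39.3% fell in this interval. By library size alone, 5 and 3 rose in these 2 lists, and 1 fell in each. Of the B cell markers 4 of 8 rose and 2 fell, not far from the shares of all genes tested. By library size alone 1 rose and 4 fell. Of the 6 macrophage markers tested 2 rose and 2 fell, near those shares, with 2 rising and 4 falling by library size alone. Of the 9 stellate and mesenchymal markers 5 rose and 4 did not pass, with 3 rising and 4 falling by library size alone. The dendritic cell markers summed to 25.4 to 25.7 CPM at E18 and 132 to 133 at P14, when Flt3, known in their precursors, fell. That sum rests largely on Bst2, which rose by 3.17 on the log2 scale from E18 to P14. From P14 to P28 Bst2 alone of the 7 rose, 4 fell, and the sum went on to 242 to 268 CPM.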

How the data were processed

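Stage and replicate number came from the sample labels. The authors sequenced 100 bp read pairs and aligned them (build mm9 per the labels), and they deposited raw read counts without normalization and RPKM, which scales reads by transcript length in kilobases and by 1000000 mapped reads, for each gene symbol. The aligner's version is not given in the sources used here. How mates and shared or antisense reads were counted is not stated.

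The members and gene lists were chosen with earlier results of these data known. The named genes were the 10 members in every sample, at most 4 of each other list with the largest changes that passed, genes that are the point of a sentence, and the 3 nearest genes of each member. Low counts were removed with filterByExpr (edgeR, version 4.0.16), 17081 genes were kept, and counts were scaled by TMM and fitted to all 8 samples with 1 coefficient per stage. P-values were adjusted by Benjamini-Hochberg over all 17081 genes and measure the spread between these samples. A gene passed at an adjusted p below 0.1, and was called changed if it also changed over 3-fold. The SE is the log2 fold change divided by the square root of F. With 2 samples a group the smallest exact permutation p is 0.33. The scripts were tested on simulated data. Median-ratio scaling, library size alone, other filters, DESeq2 (version 1.42.0), limma (version 3.58.1) on log2(RPKM + 0.1), other thresholds, a replicate block and leaving out each sample were tried. RPKM entered only level comparisons and limma, where low genes are understated. Promoters came from RefSeq on GRCm38.p6, matched by symbol, and were not converted to the build of the counts. R (version 4.3.3), Python (version 3.11.15), pandas (version 2.3.3), scipy (version 1.17.1) and matplotlib (version 3.10.9) were used.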

Additional observations from a re-analysis of the deposited data

How the results depend on the processing

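With Hoxa9 counted, the number of genes that fell over 3-fold from E18 to P14 was 5 instead of 8 when at least 10 counts in every sample were required, which removed Myb, Hoxa9 and Gfi1 from the test. From P14 to P28 it was 1 instead of 3 under that filter and in limma, 6 with a 2-fold threshold and 8 with no fold threshold. From P28 to adult it was 1 instead of 0 with either of those thresholds. Leaving out 1 sample at a time gave 8 to 9 genes from E18 to P14, 1 to 4 from P14 to P28, 0 to 0 from P28 to adult and 10 to 10 from E18 to adult. The sign changed in 3 cases where a value passed the test, and in 6 others where it passed neither with nor without the alternative. For Meis1 from E18 to P14 the log2 fold change was -0.70 by library size alone and -0.68 in limma, where the all-gene median was -0.74. For Myb the change after P14 minus that before was 2.49 in limma, on a scale where 0.1 RPKM is added to adult values below it. Of the other results for single genes under these alternatives, 696 kept their direction, or passed in neither case, and their side of the threshold, 25 passed where they had not and 5 no longer passed.

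Samples with the same replicate number did not deviate together, with correlations from -0.222 to 0.0867 over 6 pairs of stages. With the replicate number as a block, 8, 3, 0 and 10 genes changed over 3-fold from E18 to P14, P14 to P28, P28 to adult and E18 to adult, the same counts as without it. Depth limits Hoxa9 after E18 and Myb, Gfi1 and Flt3 after P14.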

Other observations

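Relatives of the 10 genes in the same families were also looked up, and 22 of 29 could be tested. From E18 to adult 19 fell and 1 rose, against 43.8% and 39.5% of all genes tested. The median log2 fold change was -2.18, against -0.11 for all genes. Besides Gfi1b and Gata1, and leaving aside Hoxa7 with its 0 reads in adult, the largest change was in Mybl2, the Myb relative of dividing cells, which had 64.3 and 68.0 CPM at E18 and 0.327 and 0.316 in adult (log2 fold change -7.68, SE 0.15, edgeR adjusted p = 1.22e-09). Runx3 fell by 3.92, and Runx2 had 2.01 and 2.46 CPM at E18 and 0.516 and 0.708 in adult. Meis2, the relative of Meis1, had a log2 fold change of 0.24 from E18 to P14 (SE 0.16, edgeR adjusted p = 0.199) and fell by 0.98 from E18 to adult. Gata4, a GATA factor that hepatocytes use, was the gene that rose, by 0.59. By library size alone 21 of the 22 fell and that rise was lost.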
